A study of Mus musculus with 6 samples.

Results

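The Hsp90 and Hsp70 chaperone systems were examined in the frontal cortex of mice given SAHA. The set was given as 10 gene symbols: Hsp90aa1, Hsp90ab1, Hspa4, Hspa8, Hspa9, Hsph1, Hspd1, Hspe1, Chordc1 and Hsf1. Each was matched to the platform's table of probe sets and genes, and the brightest probe set that pairs with a single symbol was used. 8 of the 10 matched, out of 19938 genes measured, while Hsp90ab1 and Hsf1 were not analysed here. All animals were wild-type 129S6/SvEv mice aged 8-12 weeks. 3 arrays came from mice injected with SAHA (suberoylanilide hydroxamic acid, also called vorinostat) at 20 mg per kg for 21 days. The other 3 came from mice given vehicle over the same 21 days, called saline in the sample titles, and tissue was taken on the day after the last injection. SAHA inhibits the zinc-dependent histone deacetylases. The labels do not say that each array came from its own mouse, so the spread behind the p-values is that between these arrays and may be technical.

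Hsp70 proteins bind short hydrophobic stretches of unfolded proteins and release them in a cycle driven by ATP, with Hsp110 proteins exchanging their nucleotide. Hsp90 proteins act later on a narrower range of clients, among them steroid hormone receptors and kinases, and are steered by cochaperones. Mitochondria hold their own Hsp70, which pulls in and folds imported proteins, and a chaperonin made of Hsp60 and its lid Hsp10. Hsf1 is the transcription factor that induces many of these genes after protein damage, through heat shock elements made of inverted GAA units. HDAC6, one of the deacetylases that SAHA inhibits, is known to deacetylate Hsp90 protein, a modification that RNA levels do not measure.

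Heat shock elements were searched as letters in the RefSeq promoter windows of build GRCm38.p6, which run from 250 bases before to 50 bases after a transcript start. A window was available for 5 of the genes: Chordc1, Hsph1, Hspe1, Hspd1 and Hspa4. The motif of 3 alternating units, GAANNTTCNNGAA or its reverse complement TTCNNGAANNTTC, stood in 4 of these 5 genes and in 179 of all 27025 genes with a window (0.662%). The shorter motif of 2 units, GAANNTTC or TTCNNGAA, each its own reverse complement, stood in the same 4 genes and in 17% of all genes. Outside the set, the 3-unit motif stood in 0 of 12 genes with a window that Hsf1 induces on heat shock. It stood in 0 of 18 Hsp90 cochaperones, 0 of 9 other Hsp70 genes, 0 of 7 small heat shock proteins and 0 of 10 mitochondrial partners. In the same order, the 2-unit motif stood in 7, 6, 2, 4 and 1 of these genes. Every match of 3 units also holds 2 overlapping matches of 2 units. The stretches with the 3-unit matches are shown because these letters are the known recognition pattern of heat shock factors; capitals mark every base in a 2-unit match.
Chordc1: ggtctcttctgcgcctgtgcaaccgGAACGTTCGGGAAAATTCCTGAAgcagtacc
Hspe1: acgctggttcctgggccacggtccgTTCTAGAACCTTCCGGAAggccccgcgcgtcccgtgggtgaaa
Hsph1: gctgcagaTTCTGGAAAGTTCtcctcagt
The Chordc1 stretch lies at chr9:18292238-18292293 on the plus strand, and its capitals span the annotated start. The Hspe1 stretch lies at chr1:55088034-55088101 on the plus strand. The same bases, read on the minus strand, lie in a window of Hspd1, because these 2 genes run in opposite directions from nearby annotated starts. On the plus strand, the Hspd1 start of that window lies 216 bases before the Hspe1 start. The other Hspd1 start lies 95 bases past the Hspe1 start, so transcripts from those 2 starts overlap. The window of that other Hspd1 start held no match. The Hsph1 stretch lies at chr5:149636280-149636308 on the minus strand, after the annotated start. Hspa4 held neither motif in its window. A match is a description of the letters and does not show binding.

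Values are log2 signals after RMA (robust multi-array average), an array method that corrects background, normalises between arrays and summarises each probe set, and 1 unit is a doubling. The 2 arrays that stood apart did so in sex-linked genes. Saline replicate 1 had Xist at 10.9, where the 5 other arrays lay between 4.63 and 4.88. Its Y-linked signal was not low, with Uty at 8.19, Kdm5d at 8.11 and Eif2s3y at 9.20. SAHA replicate 3 had Uty at 6.74, where the others lay between 7.93 and 8.24. That array was also the lowest for Kdm5d, at 7.23, and for Eif2s3y, at 7.80, while its Xist was 4.76. What set these arrays apart was not tested. Neuron markers had a median signal of 10.7 on each SAHA array but replicate 2, which had 10.8, and of 10.7 on each saline array. The lowest mean signal of any of the 10 was 9.37. Across genes, which are not independent replicates, the lowest correlation within a group was 0.9945 and the highest between groups 0.9943.

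No gene of the set passed the test between SAHA and saline. At a Benjamini-Hochberg adjusted p under 0.05, limma called 0 of the 8 genes and 0 of all 19938 (0%). At an unadjusted p under 0.05 there were 0 of the 8, against 3472 of all genes (17.4%). The difference, SAHA minus saline, was below 0 for 7 of the 8 genes on the deposited values, against 47.1% of all genes, but for 4 of them after quantile normalization, against 49.4% of all genes; it was 6 after cyclic loess and 8 after median centring. Their median difference was -0.064 log2, beside 0.011 over all genes. After quantile normalization it was -0.0032, beside 0.0019 over all genes.

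The direction of the small differences has to be read beside the signal of these genes. 7 of the 8 lay in the brightest decile of the genes and Chordc1 in the next. In the brightest decile the median difference was -0.051 and 82.6% of the 1994 genes were below 0. The decile below it had a median of -0.059. The dimmest decile had a median of 0.069 and the next one 0.11.

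**Figure D1:**
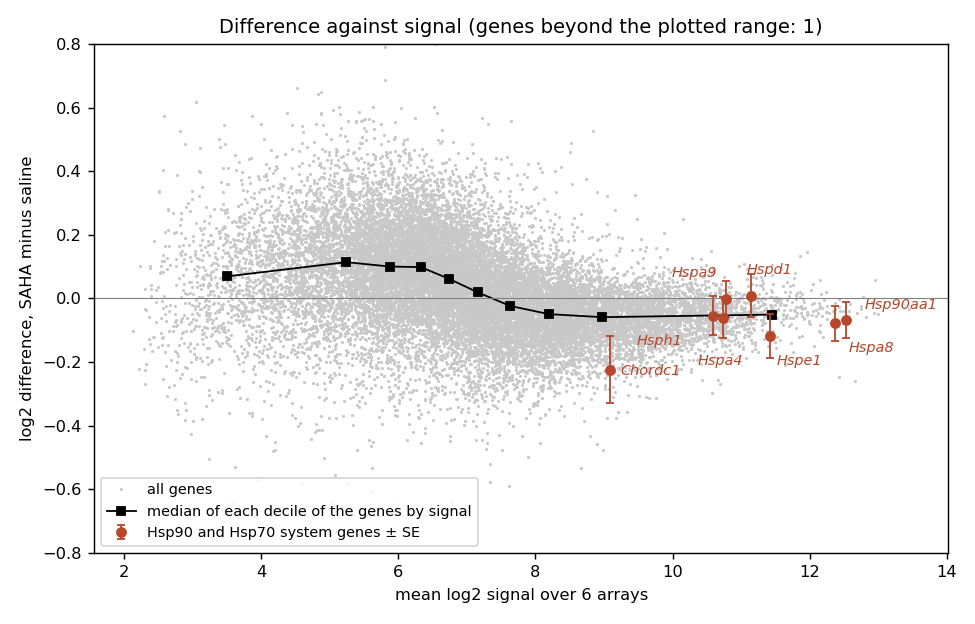
Difference in log2 signal, SAHA minus saline, against the mean log2 signal over 6 arrays for all genes (grey points; 1 gene lies beyond the plotted range). Black squares are the medians of the deciles of genes by signal, drawn at the middle of each decile's range, and red points are the 8 chaperone genes with the SE of limma. The 8 genes lie at the bright end, where the medians are -0.059 and -0.051.

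Among the cytosolic chaperones, Hsp90aa1 encodes the inducible form of Hsp90. Its signal was 12.48, 12.52 and 12.50 on the SAHA arrays and 12.62, 12.53 and 12.56 on the saline arrays. The 3 SAHA values all lay below the 3 saline values, by a narrow gap between SAHA replicate 2 and saline replicate 2. The difference was -0.068 (SE 0.058), with an adjusted p of 0.558 in limma and a 95% confidence interval of -0.20 to 0.066. Quantile normalization moved this difference to -0.010, cyclic loess to -0.032, and dropping saline replicate 1 to -0.040. Hspa8 encodes Hsc70, the constitutive Hsp70 that also uncoats clathrin vesicles at synapses. It had 12.30, 12.34 and 12.32 on the SAHA arrays and 12.41, 12.38 and 12.41 on the saline arrays. These groups did not overlap either, and the difference was -0.079 (SE 0.054), with an adjusted p of 0.470 in limma and an interval of -0.20 to 0.047. Probe positions were not used, and whether the Hspa8 probe sets also read near-identical copies of the gene was not tested. Hsp90aa1 and Hspa8 were the 2 genes of 8 whose SAHA values all lay below saline, as did 10.4% of all genes and 22% of the brightest decile.

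Hspa4 and Hsph1 encode Hsp110 proteins, nucleotide exchange factors for Hsp70. Hspa4 had 10.67, 10.75 and 10.67 on the SAHA arrays and 10.84, 10.72 and 10.72 on the saline arrays. SAHA replicate 2 lay above 2 of the saline arrays. Its difference was -0.061 (SE 0.064). Hsph1 had 10.55, 10.63 and 10.50 on the SAHA arrays and 10.63, 10.58 and 10.63 on the saline arrays, so its groups also overlapped. Its difference was -0.055 (SE 0.061), and the adjusted p values of Hspa4 and Hsph1 in limma were 0.639 and 0.657. Both differences were above 0 after quantile normalization, at 0.0039 for Hspa4 and 0.0059 for Hsph1.

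Chordc1 encodes an Hsp90 cochaperone with zinc-binding CHORD domains, and it had the widest spread of the set. Its signal was 8.83, 9.18 and 8.90 on the SAHA arrays and 9.33, 9.09 and 9.17 on the saline arrays. SAHA replicates 1 and 3 lay below all saline values, while SAHA replicate 2 lay within the saline range. The mean was 8.97 ± 0.18 in SAHA and 9.20 ± 0.12 in saline (SD, n = 3 each). The difference of -0.22 (SE 0.11) was the farthest from 0 among the 8, a level 1.17-fold higher in saline. It missed the threshold at an adjusted p of 0.316 in limma, with a 95% confidence interval of -0.47 to 0.019. Without saline replicate 1 and SAHA replicate 3, the arrays that stood apart, it was -0.12 with an adjusted p of 0.780. Leaving out SAHA replicate 2 alone gave -0.33, and leaving out SAHA replicate 1 gave -0.15.

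**Figure D2:**
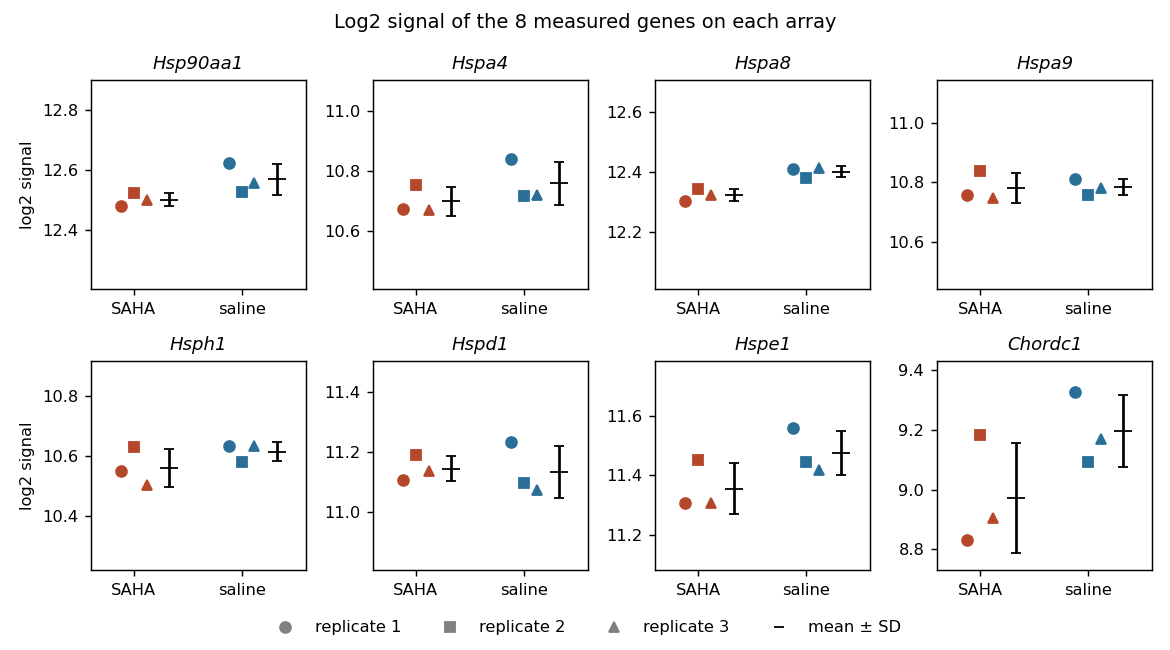
Log2 signal of each chaperone gene on the 3 SAHA arrays (red) and the 3 saline arrays (blue), with the replicate shown by the marker and the mean ± SD in black; every panel spans the same 0.7 log2. SAHA and saline values are apart in Hsp90aa1 and Hspa8 and overlap in the 6 other genes.

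Of the mitochondrial chaperones, Hspa9 encodes mortalin, the Hsp70 of the matrix. It had 10.76, 10.84 and 10.75 on the SAHA arrays and 10.81, 10.76 and 10.78 on the saline arrays. The groups lay on top of each other, with a difference of -0.0022 (SE 0.058) and an interval of -0.14 to 0.13. Hspd1 encodes Hsp60, the barrel of the chaperonin. It had 11.11, 11.19 and 11.14 on the SAHA arrays and 11.23, 11.10 and 11.07 on the saline arrays. Its difference was 0.0090 (SE 0.066), with an interval of -0.14 to 0.16. The adjusted p values of Hspa9 and Hspd1 in limma were 0.987 and 0.956, and the sign of both turned with the normalization.

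Hspe1 encodes Hsp10, the lid of that barrel. It had 11.31, 11.45 and 11.31 on the SAHA arrays and 11.56, 11.44 and 11.42 on the saline arrays. SAHA replicates 1 and 3 lay below all saline values, and SAHA replicate 2 lay above 2 of them. The difference was -0.12 (SE 0.070), with an adjusted p of 0.411 in limma and an interval of -0.28 to 0.045. Without saline replicate 1 it was -0.076. When limma was given a variance trend with signal, 3 of the 8 genes had an unadjusted p under 0.05, all 3 lower in SAHA: Chordc1 at 0.0199, Hspa8 at 0.0299 and Hspe1 at 0.0333. In that fit 8.63% of all genes were under 0.05 and lower in SAHA, and 28 genes (0.14%) but 0 of the 8 passed after adjustment. The share among genes of like signal was not counted for that fit, and 82.6% of the brightest decile were below 0.

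Since Hspd1 and Hspe1 lie head to head and their products work as 1 machine, Hspe1 was also set against Hspd1 within each array. This comparison was chosen after the values were seen. The level of such a difference has no meaning between probe sets, only its change does. Hspe1 minus Hspd1 was 0.20, 0.27 and 0.17 on the SAHA arrays and 0.32, 0.35 and 0.35 on the saline arrays. All 3 SAHA values lay below all 3 saline values, with means of 0.21 ± 0.048 in SAHA and 0.34 ± 0.014 in saline (SD, n = 3 each). Each gene has a second, dimmer probe set, which gives 4 pairs of probe sets in all. The SAHA values lay below the saline values in each of the 4 pairs, and the change was between -0.14 and -0.12. The exact two-sided permutation p was 0.10 for each pair, the smallest that 3 arrays against 3 can give. Because the comparison was picked with its values in view, this p adds no support. How often other pairs of genes separate the groups in this way was not counted. The 4 pairs share arrays and probe sets and are not independent. The 2 probe sets of Hspe1 list the same transcripts, as nearly do those of Hspd1, and cross-hybridisation to near-identical copies in the genome was not tested.

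**Figure D3:**
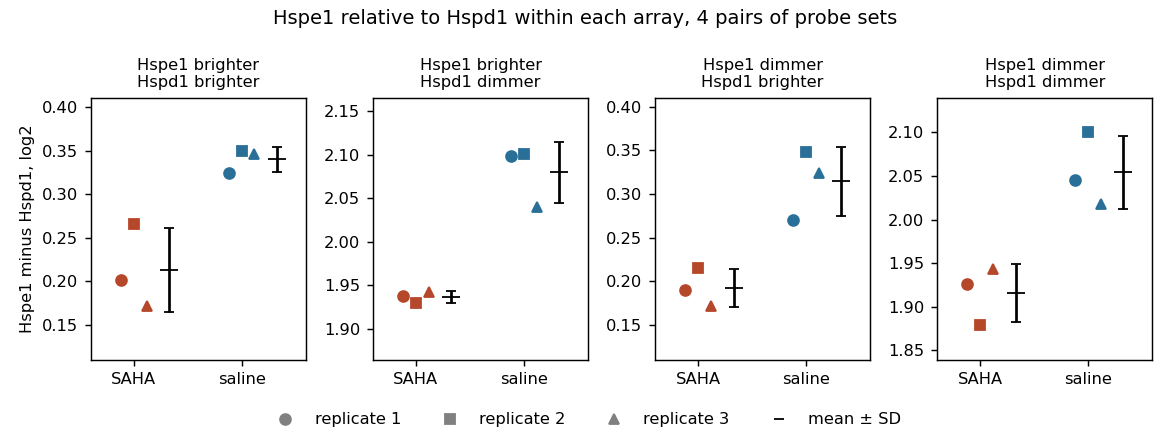
Log2 signal of Hspe1 minus that of Hspd1 on each array, for the 4 pairs of their brighter and dimmer probe sets; SAHA is red, saline blue, markers are replicates, and black marks the mean ± SD, with 0.3 log2 per panel. In each panel the 3 SAHA values lie below the 3 saline values.

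The other probe sets of the multi-probe genes gave the same direction. 4 genes had more than 1 single-symbol probe set. The 3 of Hsp90aa1 differed by -0.068, -0.073 and -0.079, and whether they also read near-identical copies of the gene was not tested. For the dimmest Hsp90aa1 probe set the SAHA and saline values overlapped. The next was apart by a narrow gap, with 12.276 on SAHA replicate 2 and 12.279 on saline replicate 2. The 3 of Hspa8 differed by -0.079, -0.12 and -0.15, the last from its dimmest probe set, at 10.8 ± 0.13 in SAHA and 11.0 ± 0.18 in saline (SD, n = 3 each). The SAHA and saline values overlapped for that probe set but not for the 2 brighter ones. The 2 of Hspd1 differed by 0.0090 and 0.025, and the 2 of Hspe1 by -0.12 and -0.11. Another 2 probe sets list Hspa8 beside other genes and were not used.

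The 8 genes varied together from array to array. SAHA replicate 2 was the highest SAHA array for 8 of the 8, and saline replicate 1 was the highest saline array for 7 of the 8. Among the brightest decile of all genes these 2 arrays were highest in their group for 62.6% and 63.6%, and among all genes for 35.3% each. After the group means were removed, all 28 pairs of the 8 genes had a correlation above 0 over the 6 arrays. Their median was 0.81 and their range 0.44 to 0.97. Such correlations were not counted among pairs of other bright genes, so these values are not shown to be particular to the set. The mean deviation of the 8 genes from their own means over the arrays was -0.078, 0.034 and -0.068 on SAHA replicates 1 to 3 and 0.10, -0.0053 and 0.016 on saline replicates 1 to 3. For the brightest decile the median deviations were -0.056, 0.0098 and -0.028 in SAHA and 0.056, 0.016 and 0.0046 in saline. The part of this shared movement of bright genes in the differences above was not tested.

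**Figure D4:**
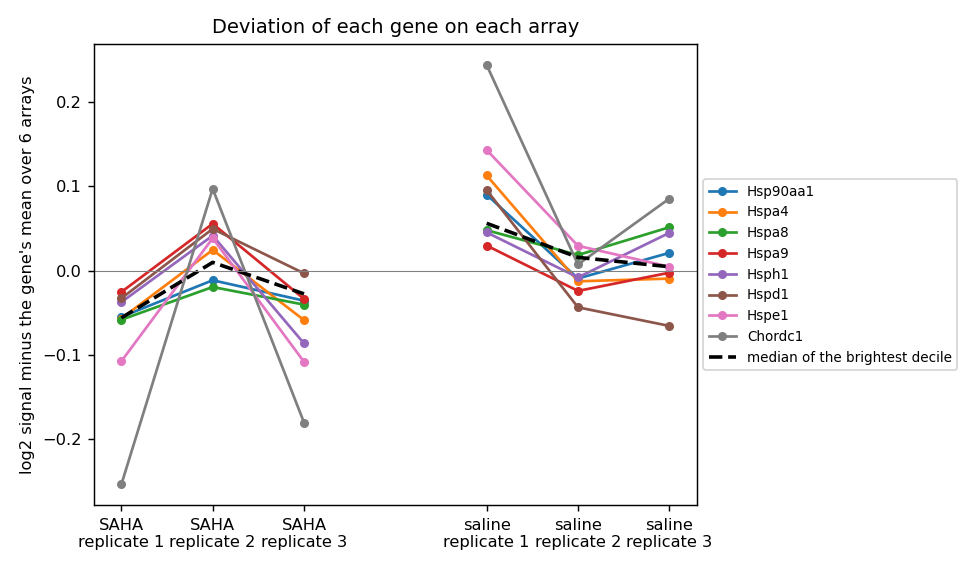
Log2 signal of each chaperone gene minus its own mean over the 6 arrays, with lines joining the values of 1 gene within a group and a dashed line for the median of the brightest decile of all genes. SAHA replicate 2 and saline replicate 1 are the high arrays of their groups for the 8 genes, except that Hspa8 is marginally higher on saline replicate 3, and Chordc1 has the widest swing.

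Outside the set, the genes most like it over the 6 arrays, by Pearson's r with the mean deviation of the 8, were Snord42a (r = 0.998), Nr3c1, Itfg1, Calm2 and Psmd6 (r = 0.995). Nr3c1 encodes the glucocorticoid receptor, Calm2 a calmodulin and Psmd6 a subunit of the proteasome's regulatory particle. After the group means were removed they were Atl1 (r = 0.999), Tstd3, Rtn4, Snord42a and Tmem33 (r = 0.998). These were picked as the highest of the genes at or above the median signal. Snord42a differed by -0.26 (SE 0.12) and Nr3c1 by -0.072 (SE 0.062), and the adjusted p of Snord42a in limma was 0.316.

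The other genes of these systems were taken as lists and described by counts. In each list limma called 0 genes at an adjusted p under 0.05. Of the 2 organelle Hsp90 genes, Trap1, the mitochondrial form, had 8.09, 8.07 and 8.13 on the SAHA arrays and 8.37, 8.29 and 8.32 on the saline arrays. The groups were well apart, and the difference was -0.23 (SE 0.057), with an adjusted p of 0.143 in limma and -0.18 after quantile normalization. Hsp90b1, the form of the endoplasmic reticulum, differed by -0.087 (SE 0.060).

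Of the Hsp90 cochaperones, 20 of 21 were measured. 17 were below 0 on the deposited values, 15 after quantile normalization, and their median was -0.083. Their median signal was 8.71, and the decile of all genes that holds this signal had a median difference of -0.059. An unadjusted p under 0.05 was reached by 4 of the 20, all lower in SAHA, against 5.56% of all genes. The share among genes of like signal was not counted, so this is not shown to be an excess. Ppid, the cyclophilin Cyp40, had 9.48, 9.58 and 9.60 on the SAHA arrays and 9.95, 9.73 and 9.71 on the saline arrays. Its groups did not overlap, and it differed by -0.24 (SE 0.081) with an adjusted p of 0.205 in limma. Nudc, a cochaperone also needed for dynein function, differed by -0.17 (SE 0.058).

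Of the other Hsp70 and Hsp110 genes, 10 of 11 were measured and 8 were below 0, 7 after quantile normalization. Their median was -0.069, and none was under an unadjusted p of 0.05. Their median signal was 7.85, and the decile of all genes that holds this signal had a median difference of -0.024. The genes of smallest p were Hspa12a, a distant Hsp70 relative, at -0.11 (SE 0.058), and Hspa2 at -0.20 (SE 0.11), which was -0.090 without SAHA replicate 2. The 12 exchange factors and regulators of Hsp70 split evenly on the deposited values, with 6 below and 6 above 0 and a median of 0.0037, while 5 were below 0 after quantile normalization and 8 after median centring. Bag5, a BAG-domain exchange factor, differed by -0.15 (SE 0.079), and Sil1, the exchange factor of the endoplasmic reticulum Hsp70, by 0.19 (SE 0.11), which was 0.075 without SAHA replicate 3 and 0.0052 without that array and saline replicate 1.

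Among 12 mitochondrial import, folding and protease genes that work beside Hspa9 and Hspd1, 10 were below 0, 8 after quantile normalization, with a median of -0.090. Their median signal was 8.53, and the decile of all genes that holds this signal had a median difference of -0.059. 2 of the 12 were under an unadjusted p of 0.05, both lower in SAHA, against 5.56% of all genes. Here too the share among genes of like signal was not counted. Tomm70a, an import receptor of the outer membrane, had 9.66, 9.79 and 9.73 on the SAHA arrays and 10.11, 9.91 and 9.86 on the saline arrays. It differed by -0.23 (SE 0.080), and Clpp, the matrix protease, by -0.22 (SE 0.079). Their adjusted p in limma was 0.219 and 0.228.

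The small heat shock proteins, which hold unfolded proteins without ATP, had the opposite balance. 7 of 9 were above 0 on the deposited values and 6 after quantile normalization, with a median of 0.11 on the first and 0.046 on the second. Their median signal was 6.89, and the decile of all genes that holds this signal had a median difference of 0.062. Hspb7 had 5.66, 5.76 and 5.79 on the SAHA arrays and 5.40, 5.41 and 5.65 on the saline arrays, a difference of 0.25 (SE 0.084). Hspb9 differed by 0.29 (SE 0.11), and by 0.17 without saline replicate 2. These 2 of 9 were the ones under an unadjusted p of 0.05, against 11.9% of all genes that were under it and higher in SAHA. For these genes as well, the share at like signal was not counted.

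Of the other heat shock factors and their regulators, 7 of 8 were measured, 3 below and 4 above 0 on the deposited values and 4 below after quantile normalization. Hsf2, a heat shock factor that can form trimers with Hsf1, had 8.05, 8.25 and 8.14 on the SAHA arrays and 8.51, 8.40 and 8.42 on the saline arrays. The groups did not overlap. The difference of -0.30 (SE 0.071) was the farthest from 0 among the genes named from these lists, with an adjusted p of 0.138 in limma, -0.25 after quantile normalization and -0.26 without the 2 arrays that stood apart. Hsf4, best known from the lens, had 6.93, 6.96 and 6.95 on the SAHA arrays and 6.77, 6.77 and 6.77 on the saline arrays. Its arrays were very tight, and it differed by 0.18 (SE 0.053) with an adjusted p of 0.178 in limma.

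Of 14 genes outside the set that Hsf1 induces on heat shock, 11 were measured, and 7 were below 0 on the deposited values and after quantile normalization. Their median was -0.075, and -0.011 after quantile normalization. Their median signal was 8.04, and the decile of all genes that holds this signal had a median difference of -0.050. 1 was under an unadjusted p of 0.05: Serpinh1, the collagen chaperone Hsp47, with a difference of 0.23 (SE 0.077). Hspb8 differed by 0.13 (SE 0.058). Hspa1a, the inducible Hsp70 gene most used to read a heat shock response, was named after its values were seen. It had 7.28, 7.39 and 7.35 on the SAHA arrays and 7.48, 7.37 and 7.42 on the saline arrays, with overlapping groups and a difference of -0.087. Whether its probe set also reads Hspa1b, a near-identical gene, was not tested.

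**Figure D5:**
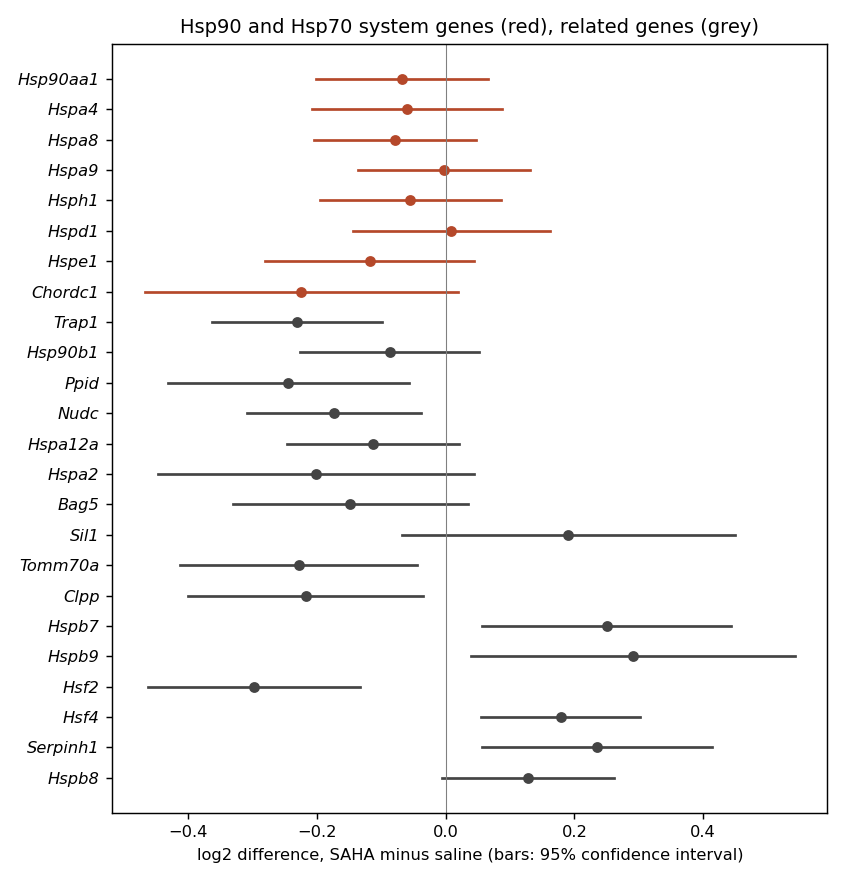
Log2 difference, SAHA minus saline, with the 95% confidence interval of limma for the 8 chaperone genes (red) and for the 2 genes of smallest p in each related list (grey). The intervals of all 8 chaperone genes include 0. Those of Trap1, Ppid, Nudc, Tomm70a, Clpp, Hspb7, Hspb9, Hsf2, Hsf4 and Serpinh1 do not, but none of these passes after adjustment over all genes. The grey genes were picked by their small p in these same data, so the 2 colours cannot be compared. Of all genes, 17.4% had an unadjusted p under 0.05 in limma.

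Marker lists of other cells also varied by array. Myelin markers had median deviations of -0.16, -0.15 and 0.17 on SAHA replicates 1 to 3 and between 0.039 and 0.059 on the saline arrays, so that SAHA replicate 3 was the high one. The 8 measured myelin markers, of 9, had a median difference of -0.12, and the 8 astrocyte and 8 microglia markers had -0.037 and -0.034. Striatal neuron markers, 7 of 9 measured, had median deviations of -0.20, -0.26 and 0.20 on the SAHA arrays and -0.024, -0.099 and 0.31 on the saline arrays, with a median difference of -0.16. The 7 choroid plexus markers had a median difference of 0.14, and the 2 of 10 red cell markers that were measured had 0.21. After quantile normalization the medians were -0.086 for myelin, 0.017 for astrocyte and -0.016 for microglia markers. They were -0.12 for striatal, 0.062 for choroid plexus and 0.17 for red cell markers. The 10 neuron markers, 5 below and 5 above 0, had a median difference of 0.0029, and 0.060 after quantile normalization. The part of cell composition in these differences was not tested, and in whole tissue fewer cells of a type and less RNA per cell cannot be told apart.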

How the data were processed

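Frontal cortex RNA was amplified over whole transcripts, tagged with biotin per the labels' protocols, and read on 1 Affymetrix array per sample. The authors deposited log2 signals made with Affymetrix Expression Console and RMA, per the submitters' processing notes; no version is given in the sources used here. RMA normalises between arrays, so a change shared by most bright genes can be partly removed from these values. The table has 35556 probe sets: 21789 with a single symbol in the platform annotation, 1621 with more and 12146 unnamed there; 999 of the 19938 genes have several probe sets. Groups came from the sample titles. limma 3.58.1 in R 4.3.3 (lmFit, eBayes, no block, no filter) was fitted to all genes, two-sided, with Benjamini-Hochberg adjustment and a threshold of 0.05, and was tested on simulated data. Precision is limited by having 3 arrays per group. The exact permutation test used scipy 1.17.1.

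The set, the lists and the alternatives were chosen with earlier results of these data known. Named genes are the 8 measured genes, the 2 of smallest p in each list, and the 5 most alike by each of the correlations over arrays. Hspa1a, the sex-linked genes and the comparison of Hspe1 with Hspd1 were added after values were seen. Promoter sequences are from RefSeq, build GRCm38.p6.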

Additional observations from a re-analysis of the deposited data

How the results depend on the processing

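Across 19 alternatives, 0 of the 8 chaperone genes passed in any, and their lowest adjusted p in limma was 0.159. Over all genes limma called 27 when only the brighter genes, from the median signal up, entered the test, 28 with a variance trend, 31 with a robust trend and 0 in the other 16. The median difference of the 8 was -0.0032 after quantile normalization, with 4 below 0, -0.019 after cyclic loess, and between -0.088 and -0.043 with 1 array left out. Hspa9, at -0.0022, was 0.057 after quantile normalization, 0.051 after cyclic loess, 0.028 without saline replicate 1 and SAHA replicate 3 together, and between -0.030 and 0.014 with 1 array left out. Hspd1 was -0.030 after median centring and between -0.021 and 0.059 with 1 array left out. Hspa4 and Hsph1 were 0.0039 and 0.0059 after quantile normalization. Rtn4, at -0.015, was 0.023 after quantile normalization, 0.034 after cyclic loess, 0.034 without the same 2 arrays and between -0.051 and 0.019 with 1 left out, and Tstd3 was 0.0097 without those 2 arrays. The cause of these changes was not tested. None of the other 28 of the 34 named genes turned its sign in the alternatives that gave it a value, although Calm2 was at 0 after quantile normalization. The restriction to brighter genes, both variance trends and the replicate block leave every difference unchanged, so no sign could turn there. Hspe1 relative to Hspd1 lay between -0.15 and -0.11 in each of 17 alternatives. Median centring, the restriction to brighter genes, both variance trends and the replicate block cannot change this value. Same-numbered arrays correlated at -0.10, -0.079 and 0.015 in their deviations from group means. Deviations from a mean of 3 arrays are tied to each other, so whether the replicate numbers pair the arrays was not settled. With the replicate block limma called 0 genes, as it did without the block.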
